A study of Mus musculus with 25 samples.

Results

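The cytosolic ribosomal protein genes were followed in RNA from E0771 tumours of C57BL/6 mice. They were taken as every gene of the deposited table whose symbol starts with Rpl, Rps or Rplp and a digit. The rule matched 102 genes, from which 10 S6 kinase genes and 6 pseudogenes with a -ps number were left out. This gave 86 members of 25006 genes in the table, 52 for the large subunit with its stalk and 34 for the small subunit. E0771 is a mammary carcinoma line of C57BL/6 mice. Mice bearing it received an antibody against CD73 every 3 days, which gave 3 libraries, or belonged to the control group labelled "con", which also gave 3. No genotype, age or sex of the mice, and no control antibody, is named in the labels. CD73 is the enzyme that makes adenosine from AMP outside cells, and the comparison asks what differed in the tumour preparations when it was targeted. These are 6 of the 25 samples of the series. The other 19, from spleen CD8+ T cells in culture, were not analysed here.

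A cytosolic ribosome is built from ribosomal RNA and about 1 copy of each ribosomal protein, so cells make the proteins of both subunits in matched amounts. Their messenger RNAs are abundant, long-lived and begin with a short run of pyrimidines, the terminal oligopyrimidine or TOP motif. Through this motif the kinase mTOR and the protein LARP1 control how strongly the RNAs are translated. In dividing tumour cells the output of these genes follows growth signals and MYC, and a shortage of some of the proteins activates p53.

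The start-site windows of 8 members are shown because TOP control acts at that place. They belong to Rps4x, Rpl39, Rpl36a, Rpl28 and Rps15a, the members with the 5 smallest p-values among those lower after anti-CD73, and to Rpl13a, Rpl18 and Rpl4 as abundant members for comparison. Each runs 5′ to 3′ from 30 bases before the annotated start to 20 bases from it, and the capitals mark the longest run of C and T in the window. The sequences are RefSeq's, on build GRCm38.p6, and 65 of the 86 members were found in that promoter table.
Rps4x, chrX:102189372-102189421, minus strand: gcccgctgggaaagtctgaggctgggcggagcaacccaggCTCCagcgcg
Rpl39, chrX:37085203-37085252, minus strand: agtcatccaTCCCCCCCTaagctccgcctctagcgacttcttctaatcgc
Rpl36a, chrX:134585624-134585673, plus strand: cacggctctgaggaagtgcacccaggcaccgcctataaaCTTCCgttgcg
Rpl28, chr7:4792935-4792984, plus strand: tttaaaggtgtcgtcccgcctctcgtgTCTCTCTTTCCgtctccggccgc
Rps15a, chr7:118116128-118116177, minus strand: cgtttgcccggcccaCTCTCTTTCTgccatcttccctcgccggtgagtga
Rpl13a, chr7:45128726-45128775, minus strand: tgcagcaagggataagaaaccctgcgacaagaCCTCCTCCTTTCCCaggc
Rpl18, chr7:45718041-45718090, plus strand: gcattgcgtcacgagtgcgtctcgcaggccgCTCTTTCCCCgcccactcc
Rpl4, chr9:64173357-64173406, plus strand: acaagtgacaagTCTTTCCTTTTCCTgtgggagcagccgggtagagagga

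The pyrimidine runs differed between members. In Rpl28, Rpl13a and Rpl18 a long run lay across the annotated start or just after it, whereas Rps4x and Rpl36a had only short runs in the window. Only the first listed start of each gene was used. Where cells start the RNA elsewhere, a TOP motif would be missed, so a short run here does not show that the motif is absent. A C followed by at least 7 bases that are each C or T lay in the window, on the strand that reads as the RNA, in 30 of the 65 members, or 46.2%. It lay there in 16.2% of the 9774 tested genes with a promoter and in 15.7% of all 27025 genes in the promoter table. The annotated start was itself a C followed by 4 such bases in 13 of the 65 members, against 2.33% of tested genes.

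Other short sequences were searched on both strands of the 300 bases from 250 before to 50 after the start. CCGGAAG, a form of the site of ETS factors, lay in 36.9% of members and 18.7% of tested genes. CTTTCC, which can overlap the pyrimidine runs, lay in 49.2% and 26.5%, and AAGATGG, a form of the YY1 site, in 13.8% and 7.53%. CCAAT lay in 29.2% and 38.7%, TATAAA in 9.23% and 7.18%, and CACGTG, the E-box that MYC can bind, in 7.69% of members and 10.3% of tested genes. These matches describe letters only and are not binding sites.

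The libraries held between 10180624 and 17161679 reads in genes, recovered from the deposited values, in which gene counts had been scaled by a size factor for each library (normalized counts). The labels call the material enriched CD8+ T cells, but T cell transcripts were scarce. The 11 T cell markers together took 0.00260 to 0.00524% of reads in the anti-CD73 libraries and 0.00138 to 0.00527% in the control libraries, and none was at 0 in all libraries. The values below therefore belong to a mixed tumour preparation, and in such bulk samples fewer cells of a type and less RNA per cell cannot be told apart. No label says that the replicates of a group came from separate animals, so the p-values reflect only how these libraries spread, which may be technical.

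Control replicate 1 stood apart from the other libraries in the ribosomal protein genes. The 86 members took 2.05, 1.92 and 2.06% of reads in anti-CD73 replicates 1, 2 and 3, and 1.47, 2.07 and 2.34% in control replicates 1, 2 and 3. The 95% Wilson intervals, which cover counting error only, ran from 2.04 to 2.06, 1.92 to 1.93 and 2.06 to 2.07% in the anti-CD73 libraries and from 1.46 to 1.48, 2.06 to 2.08 and 2.33 to 2.35% in the control libraries. The control libraries thus held both the lowest and the highest share, and the anti-CD73 libraries lay close together between them. The means were 2.01 ± 0.0776% after anti-CD73 and 1.96 ± 0.444% in control (SD, n = 3 libraries each), a ratio of 1.03. Without control replicate 1 the control mean was 2.20% and the ratio 0.913, so 1 library turned the direction of the share.

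**Figure D1:**
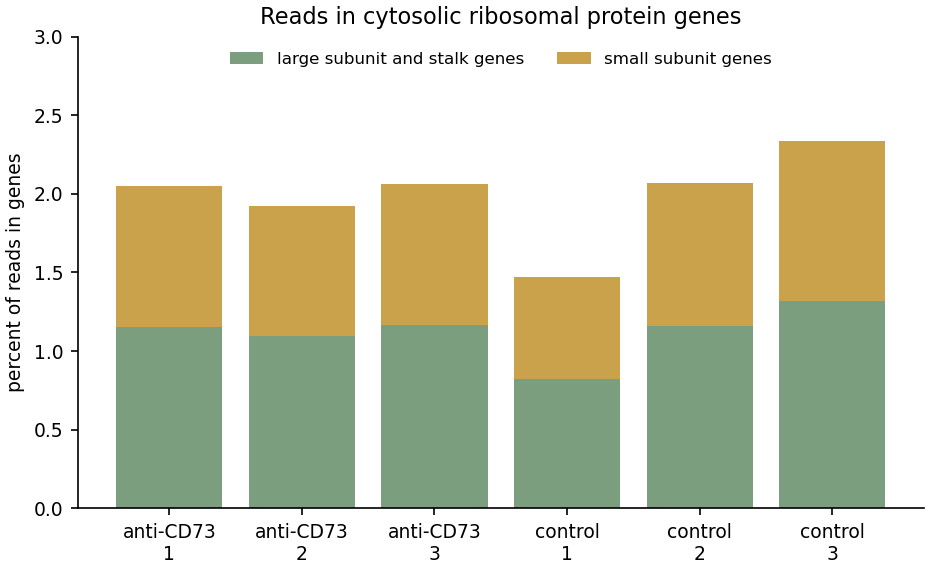
Percent of reads in genes that fell in ribosomal protein genes, for each of the 3 anti-CD73 and 3 control libraries, with large subunit and small subunit genes stacked. Control replicate 1 is the lowest at 1.47% and control replicate 3 the highest at 2.34%, while the anti-CD73 libraries lie between 1.92 and 2.06%.

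Both subunits gave the same picture. The small subunit members took 0.899, 0.827 and 0.898% of reads in the anti-CD73 libraries, against 0.645, 0.907 and 1.02% in the control libraries. The large subunit members took 1.15, 1.10 and 1.17% in the anti-CD73 libraries, against 0.825, 1.16 and 1.32% in the control libraries. In each case control replicate 1 was the lowest library and control replicate 3 the highest.

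The low level of control replicate 1 was spread over most members. Of the 81 members that averaged 10 or more normalized counts, 61 (75.3%) lay lower in control replicate 1 than in the mean of control replicates 2 and 3, as did 48.6% of all 12262 genes with such a mean. The median difference was -0.38 on the log2 scale for the members and 0.02 for all these genes. Control replicate 1 was the lowest of all 6 libraries for 48 members (59.3%, against 32.1% of all tested genes). Control replicate 3 was the highest for 57 members (70.4%, against 20.6%). The 10 erythroid markers took 0.243% of reads in control replicate 1 and 1.88 and 1.87% in control replicates 2 and 3. In anti-CD73 replicates 1, 2 and 3 they took 0.669, 1.04 and 0.280%, where members took 2.05, 1.92 and 2.06%. The part of erythroid transcripts in the levels of ribosomal protein genes was not tested. The share of reads in members was 1.47, 2.11 and 2.38% in the 3 controls when reads of erythroid markers were left out.

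**Figure D2:**
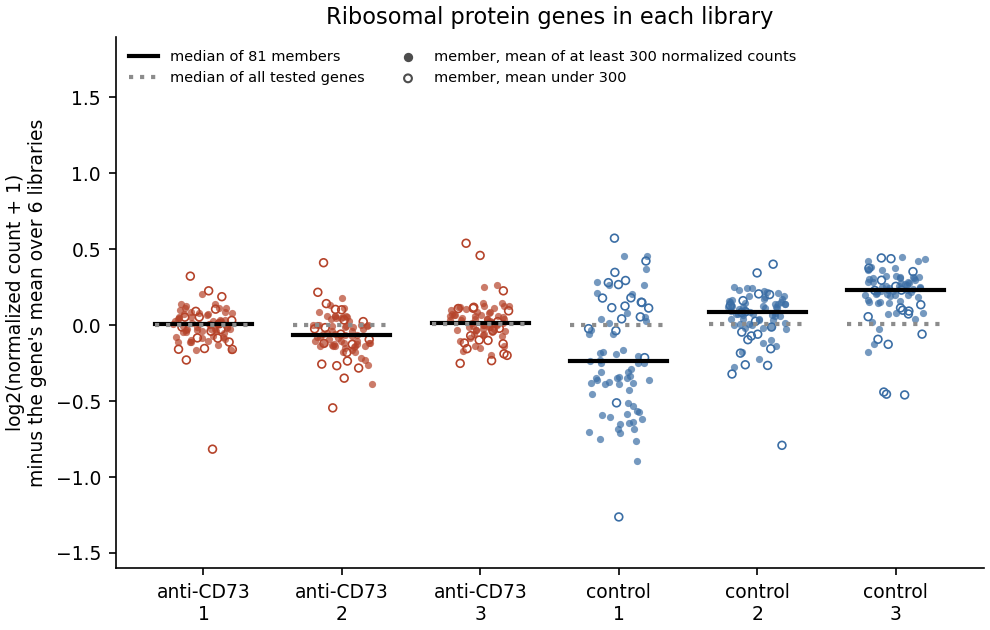
Each point is 1 of 81 members, drawn as its log2(normalized count + 1) in a library minus its mean over all 6 libraries. Bars are the median of the members and dotted lines that of all tested genes. Medians of the members are 0.01, -0.06 and 0.02 in the anti-CD73 libraries and -0.23, 0.08 and 0.23 in control replicates 1, 2 and 3.

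The members did not all follow this shift. The SD of their deviations from the gene's mean over libraries was 0.133, 0.139 and 0.131 in the anti-CD73 libraries. It was 0.372, 0.169 and 0.186 in control replicates 1, 2 and 3. For all tested genes the SD was 0.291, 0.355 and 0.243 in the anti-CD73 libraries and 0.493, 0.388 and 0.429 in the controls. Members and all genes alike thus lay furthest apart in control replicate 1, and members were less spread than all genes in every library. Members also had higher counts, with a median of 1239 normalized counts against 443 for all tested genes. The part of this in the spread was not tested. Among the 61 members that averaged 300 or more normalized counts, 52 lay lower in control replicate 1 than in the other controls, with a median of -0.48. Of the 20 members with a lower mean, 9 did, with a median of 0.17. The division at 300 was made after the values were seen. All tested genes from 300 upward had a median of 0.01 and those under it 0.03.

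The extremes were single genes. Rpl36, a large subunit protein, had 147, 148 and 161 normalized counts in the anti-CD73 libraries and 56.9, 182 and 187 in control replicates 1, 2 and 3, which put control replicate 1 at -1.68 on the log2 scale relative to the other controls. Rps27a, which encodes a fusion of ubiquitin with a small subunit protein, had 136, 143 and 122 in the anti-CD73 libraries and 208, 111 and 134 in the controls, so control replicate 1 was the highest, by 0.76. Rpl36, Rpl23a and Rpl35 had the largest SD over the 6 libraries among tested members. Rpl9, Rpl38 and Rps26 had the smallest, and Rps26 lay between 3765 and 4112 in the anti-CD73 libraries and between 4042 and 4724 in the controls.

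**Figure D3:**
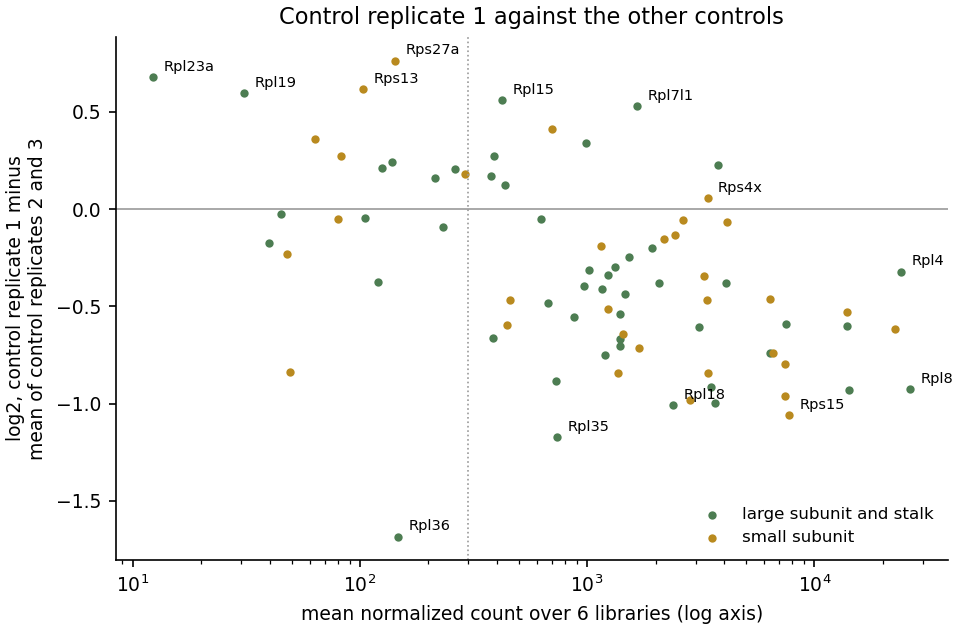
Log2 difference of control replicate 1 from the mean of control replicates 2 and 3 for 81 members, against the mean normalized count over 6 libraries on a log axis. The dotted line is at 300, right of which 52 of 61 members lie below 0.

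No ribosomal protein gene passed the test between anti-CD73 and control. By limma on log2(normalized count + 1), 0 of 81 tested members and 0 of 12262 genes had an adjusted p under 0.05. Run on the reads, edgeR's quasi-likelihood fit called 0 as well. At an unadjusted p under 0.05, limma put 4 members lower after anti-CD73 (4.94%, against 6.82% of all tested genes) and 0 higher (against 8.69%). With edgeR, 4 were lower (against 6.56% of all tested genes) and 0 higher (against 8.68%). DESeq2 called 594 genes in all, of which 1 was a member, Rps4x, lower (1.25% of members, against 2.12% of all genes), and called 0 members higher (against 2.92%).

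The fold changes of members were small. Of the 81, 64 (79.0%) had a log2 fold change within 0.2 of 0, against 49.1% of all tested genes. Members had higher counts than most genes, and fold changes spread more at low counts. All tested genes with a mean of 300 or more had quartiles of -0.19 and 0.14, and those under it -0.16 and 0.45. The median log2 fold change was -0.04 for members, -0.05 for the 32 tested small subunit members and -0.03 for the 49 tested large subunit members, beside 0.00 for all genes. The member median was 0.02 with erythroid genes left out and libraries rescaled to equal totals, and 0.07 without control replicate 3, so its sign depended on these choices. The median of all tested genes was 0.07 and 0.02 in these fits. Members minus all genes was -0.04 with erythroid genes left out, as in the main fit, and 0.04 without control replicate 3. With all 6 libraries, the 2 groups did not overlap for 11 members that were lower after anti-CD73 (13.6%, against 12% of all tested genes) and for 1 that was higher (1.23%, against 11.5%).

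Rps4x had the smallest p of all members. It encodes the small subunit protein S4 and lies on the X chromosome (ENSMUSG00000031320, GRCm38.p6 chromosome X, 102184941 to 102189391). It had 2984, 2559 and 3040 normalized counts in the anti-CD73 libraries, against 4015, 3693 and 4037 in the control libraries. Every anti-CD73 library lay below every control, and control replicate 1 lay with the other controls. The log2 fold change was -0.46 ± 0.11 (SE), a fold of 0.729, with a limma adjusted p of 0.169, which missed the threshold. DESeq2 gave an adjusted p of 0.0155 and edgeR 0.173. Without control replicate 1 the log2 fold change was -0.44 and the limma adjusted p 0.0136.

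The next members by p were also X-linked. Rpl39, a small protein of the large subunit near the exit tunnel (ENSMUSG00000079641, GRCm38.p6 chromosome X, 37082518 to 37085222), had 403, 360 and 376 normalized counts in the anti-CD73 libraries and 519, 475 and 478 in the controls. The groups did not overlap, and the log2 fold change was -0.37 ± 0.12 (SE) with a limma adjusted p of 0.222. Rpl36a, also of the large subunit (ENSMUSG00000079435, GRCm38.p6 chromosome X, 134585654 to 134588062), had 39.1, 29.6 and 37.0 in the anti-CD73 libraries and 53.8, 55.7 and 53.9 in the controls. The groups did not overlap here either, and the log2 fold change was -0.62 ± 0.22 (SE) with a limma adjusted p of 0.251.

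The remaining X-linked member was Rpl10, which joins the large subunit late in assembly. It had 915, 1083 and 1014 normalized counts in the anti-CD73 libraries and 1141, 897 and 906 in the controls, and the groups overlapped. The 369 tested genes on the X chromosome had a median log2 fold change of 0.00. That the 3 members with the smallest p were X-linked was noticed after the values were seen and was not tested.

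**Figure D4:**
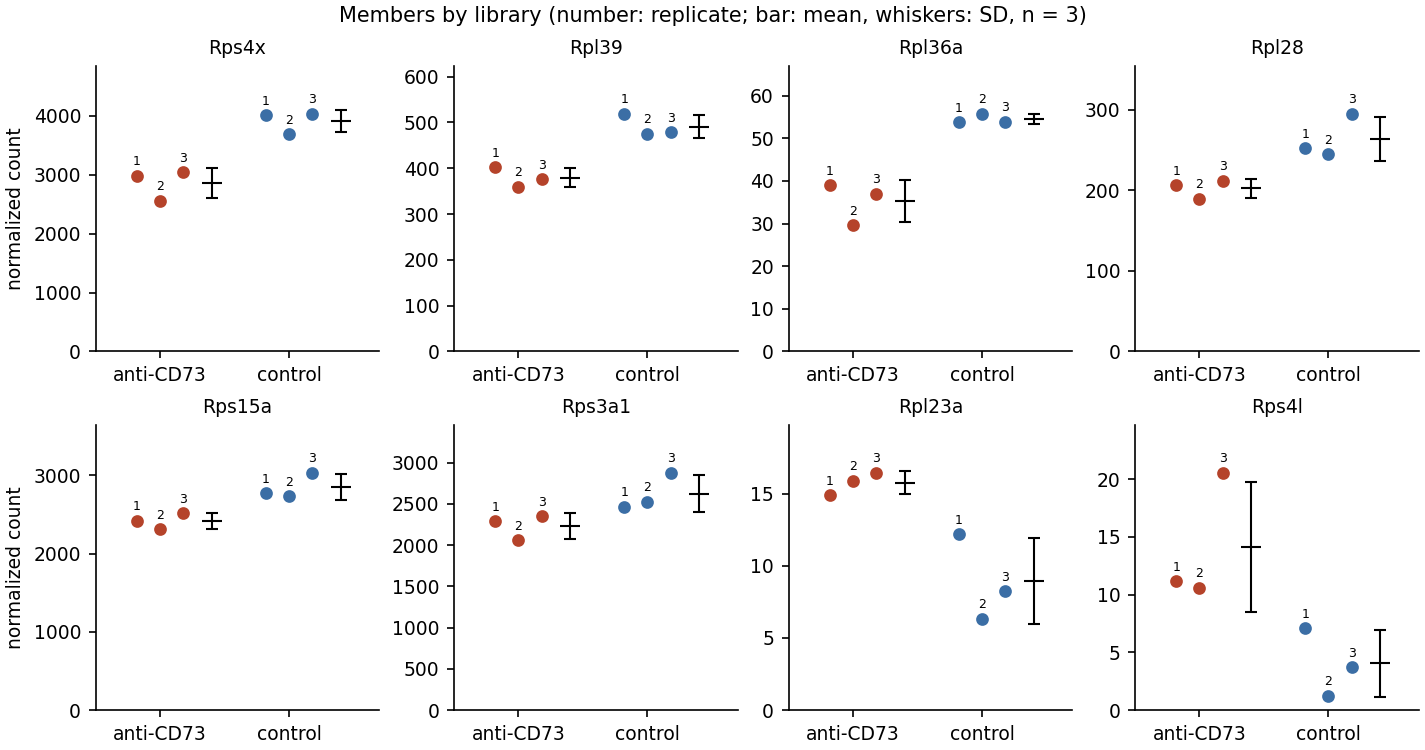
Normalized counts of 8 members in each library, anti-CD73 left and control right, with the mean and SD (n = 3 libraries) beside each group. Rps4x, Rpl39, Rpl36a, Rpl28, Rps15a and Rps3a1 lie lower in every anti-CD73 library than in any control, and Rpl23a and Rps4l lie higher.

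Among the other small subunit genes, Rps15a had 2422, 2315 and 2518 normalized counts in the anti-CD73 libraries and 2769, 2730 and 3035 in the controls. This gave a log2 fold change of -0.23 ± 0.10 (SE) with a limma adjusted p of 0.328. Rps3a1, whose product sits where initiation factors bind, had 2294, 2058 and 2353 in the anti-CD73 libraries and 2464, 2529 and 2881 in the controls, with a log2 fold change of -0.23 and a limma adjusted p of 0.38. The groups did not overlap for either gene, and neither passed the test. Rps24 and Rps29 also had groups that did not overlap, with log2 fold changes of -0.14 and -0.36.

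Other small subunit genes with known roles had groups that overlapped. Rps3, which lines the messenger RNA entry channel and takes part in DNA repair, had 22726, 19954 and 22978 normalized counts in the anti-CD73 libraries and 17112, 25424 and 27133 in the controls. The control libraries spanned the anti-CD73 values, and the log2 fold change was -0.06. Rps6, the target of the S6 kinases, had 49.3, 37.1 and 44.2 in the anti-CD73 libraries and 46.7, 53.2 and 56.9 in the controls, with a log2 fold change of -0.26. Rps19, which is mutated in Diamond-Blackfan anaemia in humans, had 2988, 2845 and 2995 in the anti-CD73 libraries and 1644, 3037 and 3461 in the controls, and only control replicate 1 lay below the anti-CD73 values. Rps9 and Rps13, a pair of small subunit proteins, had log2 fold changes of 0.17 and 0.29. Neither passed the test.

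Among the large subunit genes, Rpl28 lay lower in every anti-CD73 library, with 206, 190 and 212 normalized counts against 252, 245 and 295 in the controls. The difference was -0.38 ± 0.15 (SE) on the log2 scale with a limma adjusted p of 0.286. Rpl38, which takes part in selecting Hox messenger RNAs in the mouse embryo, had 616, 565 and 593 in the anti-CD73 libraries and 651, 687 and 662 in the controls, with a log2 fold change of -0.17. Rpl24, at the bridge between the subunits, had 21.4, 41.3 and 39.1 in the anti-CD73 libraries and 41.6, 44.3 and 50.1 in the controls, and anti-CD73 replicate 1 lay far below the other 5 libraries. The log2 fold change of Rpl24 was -0.46. The groups did not overlap for these genes, and none passed the test.

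Rpl23a was the member that lay highest after anti-CD73, at few reads. It binds the signal recognition particle at the exit tunnel, and had 14.9, 15.9 and 16.5 normalized counts in the anti-CD73 libraries and 12.2, 6.34 and 8.23 in the controls. Its log2 fold change was 0.80 ± 0.36 (SE) with a limma adjusted p of 0.346, and RefSeq names 13 pseudogenes of it, so its reads are uncertain. The other large subunit genes with the smallest p on the higher side were Rpl10a, Rpl27a, Rpl7a and Rpl29, with log2 fold changes of 0.28, 0.14, 0.19 and 0.19. Rpl10a had 1158, 1334 and 1419 in the anti-CD73 libraries and 757, 1242 and 1308 in the controls. Control replicate 1 alone lay far below the others.

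Other large subunit genes with known roles lay near 0. Rpl4, which reaches into the exit tunnel, had 24306, 23932 and 24770 normalized counts in the anti-CD73 libraries and 20443, 24302 and 26844 in the controls. Rpl13a, which in human cells leaves the ribosome after interferon-gamma to silence certain messenger RNAs, had 13988, 12835 and 14612 in the anti-CD73 libraries and 9159, 16143 and 18853 in the controls. The anti-CD73 values of both genes lay inside the span of the controls. Rpl22, which T cell precursors need in the mouse, had 4107, 3888 and 4044 in the anti-CD73 libraries and 3480, 4281 and 4793 in the controls. The log2 fold changes of the 3 genes were 0.04, -0.03 and -0.05.

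The stalk proteins recruit the elongation factors to the large subunit. Rplp0, their anchor, had 13669, 13448 and 13936 normalized counts in the anti-CD73 libraries and 10514, 14890 and 17065 in the controls. Rplp1 had 6510, 6534 and 6788 in the anti-CD73 libraries and 4217, 6586 and 7539 in the controls. Rplp2 had 3638, 3570 and 3588 in the anti-CD73 libraries and 2132, 3807 and 4256 in the controls. All 3 were tight in the anti-CD73 libraries and wide in the controls, where control replicate 1 was the lowest library. Their log2 fold changes were -0.02, 0.15 and 0.14 with all libraries, and -0.22, -0.09 and -0.16 without control replicate 1.

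Rpl5 and Rpl11 form a particle with an rRNA outside the ribosome that binds MDM2 and stabilises p53, and Rpl23 and Rpl26 also act on that pathway. Rpl5 had 106, 116 and 116 normalized counts in the anti-CD73 libraries and 151, 127 and 135 in the controls, without overlap, and its log2 fold change was -0.28 with a limma adjusted p of 0.45. Rpl11 had 120, 107 and 91.5 in the anti-CD73 libraries and 103, 100.1 and 112 in the controls, with a log2 fold change of 0.01. Rpl23 and Rpl26 had log2 fold changes of -0.15 and 0.03. None of the 4 passed the test. Of 14 tested genes of p53 and ribosomal stress, 7 lay lower and 7 higher, with a median of -0.03, and 0 passed.

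Several ribosomal protein genes have a second expressed copy. Rpl22l1, the paralogue of Rpl22, had 354, 343 and 387 normalized counts in the anti-CD73 libraries and 473, 384 and 398 in the controls, with a log2 fold change of -0.21. Rpl36al, the autosomal copy of Rpl36a, had 1034, 921 and 997 in the anti-CD73 libraries and 905, 1067 and 1182 in the controls, with overlap and a log2 fold change of -0.09. Rps27l, a p53 target in human cells, had 695, 636 and 613 in the anti-CD73 libraries and 893, 736 and 611 in the controls, with a log2 fold change of -0.19. Rpl7l1, a paralogue of Rpl7 that acts in ribosome assembly, had a log2 fold change of -0.20. None of these copies passed the test.

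Of the 86 members, 5 had a mean under 10 normalized counts and were left out of the test. Rpl10l, a retrocopy of Rpl10 used in the testis, had 0 reads in every library. Rpl39l, Rpl3l and Rps27rt had 9, 11 and 5 reads over all 6 libraries. Rps4l, which RefSeq lists as a transcribed pseudogene and which is a copy of Rps4x on chromosome 6, had 12, 10 and 20 reads in the anti-CD73 libraries against 7, 1 and 5 in the controls. Every anti-CD73 library lay above every control, while Rps4x lay the other way. The 95% Poisson intervals overlapped for some pairs of libraries, for example 4.80 to 18.4 reads in anti-CD73 replicate 2 and 2.81 to 14.4 in control replicate 1. They did not overlap for other pairs, such as anti-CD73 replicate 1 with 12 reads and control replicate 2 with 1. With no filter on low values, limma gave Rps4l a log2 fold change of 1.71 ± 0.56 (SE) and an adjusted p of 0.269. No source used here says how reads that match both copies were counted.

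Reads of other members are also uncertain for this reason. RefSeq names 308 pseudogenes after 63 of the members. The 11 tested members with at least 10 such pseudogenes had a median log2 fold change of 0.10, and the 19 with none -0.04. Without control replicate 1 these medians were -0.10 and -0.19. The sets also differed in reads, with medians of 214 and 2430 normalized counts, and what set them apart was not tested. The counts were not divided by transcript length, so levels of different genes are not compared. Rps19bp1, which the rule on symbols also takes in, encodes a protein that binds Rps19 and is not a ribosomal protein. Its log2 fold change was -0.08.

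Control replicate 1 was left out after the values were seen. It was the lowest library for 48 of the 81 tested members, so leaving it out raises the control mean of those members. Without control replicate 1, members lay lower after anti-CD73 as a rule. Of the 81 tested, 70 (86.4%) had a log2 fold change below 0, against 52.1% of all tested genes. The median was -0.18, a fold of 0.881, and that of all genes was -0.02. The number below 0 was 67 with edgeR, 70 with DESeq2, 70 with TMM scaling and 64 with erythroid genes left out and libraries rescaled. Markers of other cells moved in the same fit, in which limma called 10 of 14 macrophage, 5 of 11 T cell, 4 of 9 neutrophil, 3 of 10 fibroblast and 2 of 6 striated muscle markers higher. It called 7 of 8 erythroid markers and 1 of 3 epithelial markers lower. The median log2 fold change was 0.99 for macrophage, 1.35 for T cell and -1.66 for erythroid markers, and their part in the values of the members was not tested. Among the members 6 fell at a limma adjusted p under 0.05 (7.41%, against 10.3% of all tested genes called lower), and 0 rose (against 11.9%). At an unadjusted p under 0.05, 27 members were lower (33.3%, against 18%) and 2 higher, Rpl23a and Rps13 (2.47%, against 18.4%). Groups did not overlap for 46 members that were lower (56.8%, against 27.8%) and for 4 that were higher (4.94%, against 25.7%). With control replicate 3 left out instead, 30 of the 81 members had a log2 fold change below 0. Their median was then 0.07, beside 0.02 for all tested genes.

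The 6 members that fell without control replicate 1 were Rps4x, Rps14, Rpl41, Rpl13a, Rpl18 and Rpl32, of which Rps14, Rpl41, Rpl18 and Rpl32 are named here for this call. Rps14, a small subunit protein of the platform, had 7587, 6895 and 7163 normalized counts in the anti-CD73 libraries and 8713 and 9132 in control replicates 2 and 3, with 5131 in control replicate 1. Its log2 fold change without that control was -0.31 with a limma adjusted p of 0.0226, against -0.04 and 0.947 with all libraries. Rpl41, which encodes the smallest ribosomal protein, had 3584, 3265 and 3721 in the anti-CD73 libraries and 4224 and 4865 in control replicates 2 and 3, with 2274 in control replicate 1. Without that control Rpl41 had a log2 fold change of -0.37. Rpl13a, Rpl18 and Rpl32 had -0.34, -0.26 and -0.29. In 5 of the 6 genes control replicate 1 lay below every other library, and Rps4x was the exception.

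**Figure D5:**
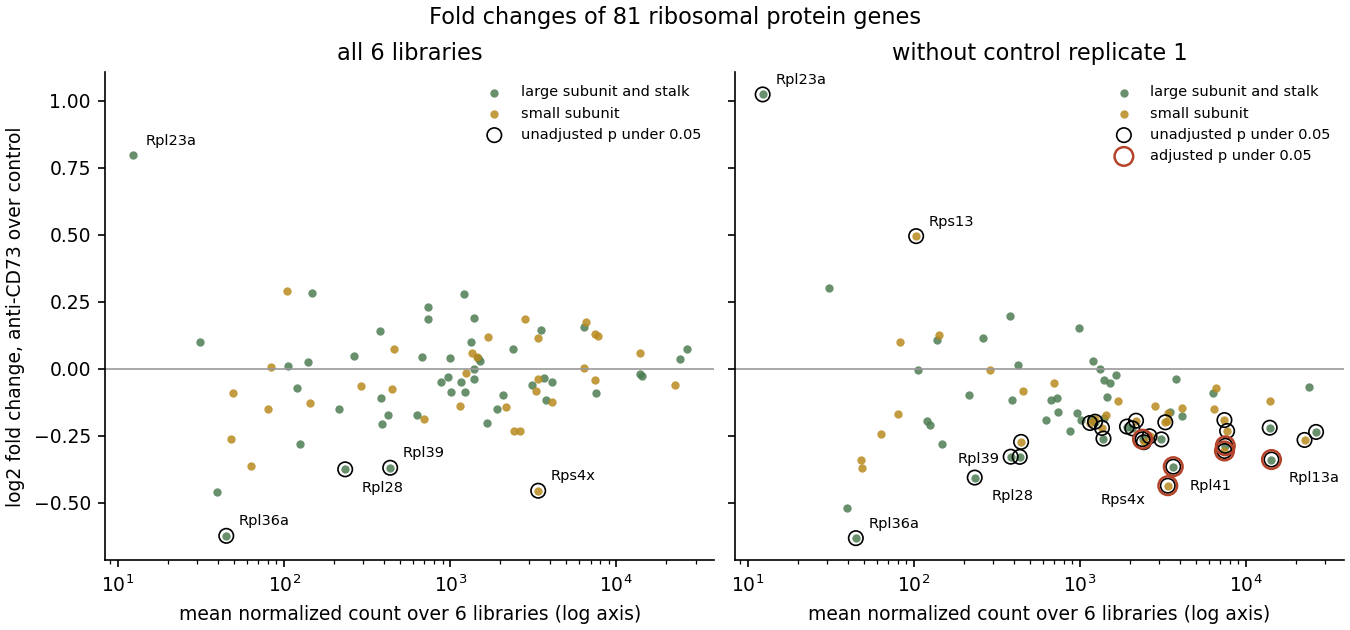
Log2 fold change of anti-CD73 over control against the mean normalized count on a log axis for 81 members, with all 6 libraries at left and without control replicate 1 at right. Black rings mark an unadjusted limma p under 0.05 and red rings an adjusted p under 0.05, which 0 members reach at left and 6 at right.

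Leaving out any other library gave 0 calls by limma. Without control replicate 1, DESeq2 called 9 members lower (11.1%, against 10.1% of all tested genes) and edgeR 4 (4.94%, against 9.7%). In limma with TMM scaling 9 fell (11.1%, against 11.2%), and with erythroid genes left out and libraries rescaled 3 (3.7%, against 7.95%). The 5 libraries of that fit hold 2 controls, so the spread between controls rests on 1 pair.

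The pyrimidine run was set beside the fold changes. The 29 tested members with a C followed by at least 7 pyrimidines in the start-site window had a median log2 fold change of -0.09, and the 32 without it -0.01. Without control replicate 1 the medians were -0.19 and -0.18, with 26 members below 0 in both sets. Of the 8 members shown above, Rps4x and Rpl36a have no such run in the window, and the others have one. Runs at starts other than the first listed one were not searched, so either set may hold misplaced members.

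A few proteins of the ribosome carry other symbols and so lie outside the rule. Rpsa, a small subunit protein first named as a laminin receptor, Fau and Rack1 had log2 fold changes of 0.09, 0.17 and -0.03. Fau had 384, 383 and 355 normalized counts in the anti-CD73 libraries and 256, 351 and 409 in the controls, so control replicate 1 was the lowest library and the groups overlapped. None of the 3 genes passed the test.

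Other genes of the translation machinery stayed near 0 in the median too. With all 6 libraries limma called 0 genes in each of the lists given here. The 37 translation factors had a median of -0.07, with 3 lower at an unadjusted p under 0.05. One was Eif3e, a subunit of the initiation factor that binds the small subunit, with 3339, 3266 and 3737 normalized counts in the anti-CD73 libraries and 5488, 4334 and 4460 in the controls. For Eif3e the log2 fold change was -0.46 with a limma adjusted p of 0.185. The 19 other known TOP messenger RNAs had a median of -0.08, of which 13 lay lower, and -0.07 without control replicate 1. Most of them, such as Eif3e, also stand in the other lists given here. Without control replicate 1, limma called 4 of the 19 lower and 0 higher, against 10.3% and 11.9% of all tested genes.

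The 56 assembly factors, which process rRNA and build the subunits, had a median of -0.10, with 42 lower and 14 higher. Their median was -0.03 without control replicate 1, and that of the members -0.18. The 17 genes of RNA polymerase I and of 5S rRNA synthesis by RNA polymerase III had -0.03 and the 11 tested snoRNA host genes -0.14. Among the 24 tested genes of mTOR and MYC control, the median was -0.06, with 2 higher and 2 lower at an unadjusted p under 0.05, and it was 0.02 without control replicate 1. Deptor, an inhibitor of mTOR, had 837, 671 and 968 normalized counts in the anti-CD73 libraries and 1208, 1178 and 1298 in the controls, without overlap. Mxd1 and Mnt, which compete with MYC for its partner MAX, had log2 fold changes of 1.13 and 0.46. Neither they nor Deptor, at -0.59, passed the limma test. Myc, the transcription factor that drives ribosome production, had 10996, 12695 and 14997 normalized counts in the anti-CD73 libraries and 19468, 16094 and 16380 in the controls. The groups did not overlap, and its log2 fold change was -0.43 with a limma adjusted p of 0.248.

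Markers of other cells differed between the libraries, and their part in the values of ribosomal protein genes was not tested. The 14 macrophage markers took 0.144 to 0.241% of reads in the anti-CD73 libraries and 0.0821 to 0.156% in the controls, and all 14 lay higher after anti-CD73, with a median log2 fold change of 0.70. Of 9 tested neutrophil markers 7 lay higher, with 0.0695 to 0.124% of reads in the anti-CD73 libraries and 0.0450 to 0.0615% in the controls. The 10 erythroid markers took 0.280 to 1.04% in the anti-CD73 libraries and 0.243 to 1.88% in the controls. Fibroblast markers took 0.0514 to 0.0606% in the anti-CD73 libraries and 0.0350 to 0.0434% in the controls. Epithelial markers took 0.0174 to 0.0220% in the anti-CD73 libraries and 0.0151 to 0.0364% in the controls, and striated muscle markers 0.00273 to 0.00307% in the anti-CD73 libraries and 0.00105 to 0.00227% in the controls. No marker of these lists was at 0 in all 6 libraries, and with all libraries limma called 0 of them.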

How the data were processed

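Bulk RNA-seq values were used for 3 anti-CD73 and 3 control libraries, grouped and numbered by title, with columns matched through the sample descriptions. Per the labels' protocols, RNA was taken up in Trizol and an NEBNext Ultra II kit was used for the libraries. Per the labels, the authors scaled gene counts by DESeq size factors, and these scaled counts are the deposited signal values. The submitters' processing notes name Bowtie 0.12.7 and build mm10 with no role for either. Which counter, annotation and strand setting were used is not stated. Dividing each value by that of 1 read recovered the reads: 100% came out whole within 0.01, with 10180624 to 17161679 reads per library. All 86 members matched a RefSeq gene.

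Groups were compared with limma-trend (limma 3.58.1, R 4.3.3, two-sided, unblocked) on log2(normalized count + 1) for 12262 genes with a mean of 10 or more, adjusted by Benjamini and Hochberg at 0.05. Fold changes on this scale understate those of low genes. The recovered reads were also fitted with edgeR 4.0.16 and with DESeq2 1.42.0, which used the authors' size factors and returned adjusted p-values for 11780 genes and 80 members. Other alternatives were no filter, a mean of 50 or more, pseudocounts of 0.5 and 8, TMM or quantile scaling, erythroid genes left out, robust empirical Bayes, replicate blocks and each library left out. Counts and medians describe the lists, with no list test. Genes were named by rule: the 8 smallest p in each direction, the 3 largest and smallest SD over libraries, genes of known role, paralogues and 3 companions. A further gene of that rule is not reported here. Members, lists and rules were chosen with earlier results of these data known. TMM scaling and erythroid rescaling without control replicate 1 were added after seeing the data. Scripts were tested on simulated data.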

Additional observations from a re-analysis of the deposited data

How the results depend on the processing

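The count of members called and of all genes called depended on control replicate 1 and on the tool. With single libraries left out, including the fits by edgeR, DESeq2, TMM scaling and erythroid rescaling without control replicate 1, limma and these tools called 0 to 2801 genes and 0 to 9 members, and 1 to 33 members had an unadjusted p under 0.05 (1.23%, against 6.96% of all tested genes, without anti-CD73 replicate 2, and 40.7%, against 37%, with TMM scaling without control replicate 1). With all libraries, DESeq2 called 594 genes and 1 member. All other settings with 6 libraries and no block called 0. The deviations of same-numbered libraries had correlations of 0.189, -0.0963 and 0.262 for numbers 1, 2 and 3. Those of differently numbered libraries ranged from -0.2742 to 0.1865. These values do not decide whether the libraries pair. The labels do not say that the numbers pair animals, so they were not read as pairs. With a replicate block by title number, 0 genes were called and 2 members, against 4 unblocked, had an unadjusted p under 0.05 (2.47%, against 15% of all tested genes). With a replicate block by the number in the descriptions, in which anti-CD73 replicate 2 and control replicate 1 have no partner, 1780 genes and 1 member were called and 8 members had an unadjusted p under 0.05 (9.88%, against 29% of all tested genes). In that last fit, libraries without a partner add nothing to the fold changes. It therefore leaves control replicate 1, as well as anti-CD73 replicate 2, out of the comparison. The cause of the changed counts of calls was not tested. The member median ranged from -0.19 to 0.07 over all settings.

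Of 816 pairs of a named gene and an alternative, 721 kept direction and side of the threshold, 10 gained the call, 0 lost it and 85 turned direction. The main fit called 0 genes, so no call could be lost, and staying uncalled says little about stability. With quantile normalization Rack1 was 0.22, Rpl11 -0.16, Rpl13a 0.16, Rpl22 0.061, Rpl9 -0.021, Rplp0 0.15, Rps3 0.17 and Rpsa -0.00496. With erythroid genes left out and rescaled, Rack1 was 0.032, Rpl13a 0.032, Rpl22 0.013, Rplp0 0.041 and Rps3 0.0013. The median of all tested genes was 0.065 in that fit. The block by description number, given next, takes no fold change from control replicate 1 or anti-CD73 replicate 2. With the replicate block by description number, Fau was -0.0369, Rpl11 -0.017, Rpl26 -0.049, Rpl29 -0.092, Rpl35 -0.14, Rpl36 -0.26, Rpl4 -0.058, Rpl7l1 0.031, Rplp1 -0.084, Rplp2 -0.16, Rps19 -0.12, Rps9 -0.058 and Rpsa -0.027. With libraries left out, log2 fold changes ranged from -0.028 to 0.32 for Fau, -0.13 to 0.033 for Rack1, -0.021 to 0.17 for Rpl10, -0.083 to 0.11 for Rpl11, -0.34 to 0.18 for Rpl13a, -0.18 to 0.056 for Rpl22, -0.059 to 0.11 for Rpl26, -0.11 to 0.35 for Rpl29, -0.17 to 0.50 for Rpl35, -0.28 to 0.57 for Rpl36, -0.19 to 0.000898 for Rpl36al, -0.072 to 0.13 for Rpl4, -0.043 to 0.32 for Rpl7a, -0.0053 to 0.13 for Rpl9, -0.22 to 0.13 for Rplp0, -0.096 to 0.33 for Rplp1, -0.16 to 0.34 for Rplp2, -0.14 to 0.40 for Rps19, -0.27 to 0.067 for Rps3, -0.073 to 0.31 for Rps9 and -0.017 to 0.14 for Rpsa. Under every alternative run for them, 19 of the 41 named genes kept direction. These included Rps4x, Rpl39, Rpl36a, Rpl28, Rps15a and Rps3a1, which lay lower after anti-CD73. They also included Rpl10a, Rpl23a, Rpl27a and Rps13, which lay higher. All of these were named for a small p in the main fit of the same libraries, so keeping direction adds no separate support. Depth limits Rpl23a, Rps4l and the other members with few reads.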

Other observations

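The S6 kinase genes share the Rps prefix and were kept apart from the ribosomal protein genes. Rps6kb1, the kinase that phosphorylates Rps6 below mTOR, had 803, 827 and 939 normalized counts in the anti-CD73 libraries and 1298, 817 and 754 in the controls. Control replicate 1 was the highest library, and the limma log2 fold change was -0.12. Rps6kb2 had 323, 376 and 307 in the anti-CD73 libraries and 180, 300.3 and 358 in the controls, where control replicate 1 was the lowest. Rps6ka4, a kinase of histone H3 and CREB, had 1570, 1440 and 1529 in the anti-CD73 libraries and 1009, 2047 and 2100 in the controls. With all libraries none of these passed the test. Without control replicate 1, Rps6ka4 fell, with a limma log2 fold change of -0.46 and an adjusted p of 0.00553, and Rps6ka2 rose, with 1.33 and 0.0323. Of all tested genes, that fit called 10.3% lower and 11.9% higher, so these calls are not particular to the kinases. Rps6ka2 had 69.7, 30.7 and 42.2 normalized counts in the anti-CD73 libraries and 44.7, 19.0 and 15.7 in control replicates 1, 2 and 3. Of the other 8 S6 kinase genes, 7 did not pass and Rps6ka6 was too low to test.

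The pseudogenes left out by name had few reads apart from Rpl14-ps1. It had 106, 92.1 and 103 normalized counts in the anti-CD73 libraries and 90.4, 109 and 138 in the controls, so control replicate 1 was again the lowest and control replicate 3 the highest. Its parent gene Rpl14 had 1676, 1438 and 1322 in the anti-CD73 libraries and 1172, 1451 and 1730 in the controls, in the same order among the controls.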
